A study of Mus musculus with 14 samples.

Results

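The genes described here are 46 mouse genes whose products copy DNA: the helicase that opens the origin, the factors that license and fire it, the polymerases, the sliding clamp, the single-strand binding complex, the enzymes that make nucleotides, and 3 genes of the entry into S phase. They were taken from a fixed list of symbols. A gene was measured by the probes that the platform annotation gives to it alone, and where it had several such probes the one with the highest mean over the arrays was used. All 46 had such a probe, of 19938 genes measured in this way. Pcna, Rpa3 and Tk1 had 2 probes each, and both probes of each gene moved in the same direction in the comparisons of virus and of day given below.

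The cells were MEFs, fibroblasts cultured directly from embryos of mice. SKO cells had been infected with retroviruses that encode Sox2, Klf4 and Oct4 (the product of Pou5f1), 3 transcription factors that can turn fibroblasts into pluripotent cells. GFP cells, the control, had been infected with a retrovirus that encodes green fluorescent protein. All cells went through 2 rounds of infection and were moved on day 2 to embryonic stem cell medium with LIF, a cytokine that keeps stem cells undifferentiated. That medium held 50 µg/ml vitamin C (Vc) in the treated arm and none in the untreated arm. Lysates of vitamin C-treated and of untreated SKO cells were made on days 3, 4, 5, 6, 8 and 10, and those of vitamin C-treated and untreated GFP cells on day 3. There was 1 array for each of these 14 states, 6 of each SKO arm and 1 of each GFP arm. The spread in every test therefore comes from how much the gap between treated and untreated arrays varied over the days, and the p-values do not measure the spread between independent cultures. Values are log2 signals of Affymetrix whole-transcript arrays, on which 1 unit is a doubling of signal, and levels of different genes are not set against each other.

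DNA replication is prepared in G1, when the origin recognition complex, Cdc6 and Cdt1 load the Mcm2 to Mcm7 helicase onto origins. Kinases then bring in Cdc45 and the GINS complex, which turn the helicase on, and polymerase alpha-primase starts each new strand for the replicative polymerases to extend. Many of these genes are transcribed together at the G1/S boundary by E2F transcription factors once the cyclin E-Cdk2 kinase and its partners have inactivated the retinoblastoma protein. Fast proliferation is a known early feature of some fibroblasts that receive reprogramming factors, and proliferation was not measured by these arrays.

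Since members moved together, their promoters are shown for the 3 members with the largest difference between SKO and GFP cells whose window held an E2F-type motif. The windows run from 250 bases before to 50 after the annotated start (RefSeq, mouse build GRCm38.p6), and the capitals mark E2F-type motifs, searched as TTTCCCGC, TTTCGCGC, TTTGCCGC and TTTGGCGC on both strands. Pola1, the catalytic subunit of polymerase alpha, has its window at chrX:93632106-93632405 on the minus strand. The window of Mcm6, a helicase subunit, is at chr1:128359656-128359955 on the minus strand, and 2 of its 3 matches overlap each other. The window of Mcm7, another helicase subunit and 1 of 2 windows of that gene, is at chr5:138171834-138172133 on the minus strand. Rrm2, Prim1, Pcna, Rpa3, Rrm1 and Tk1 differed more between SKO and GFP cells than Mcm7, but their windows held no such motif.
Pola1: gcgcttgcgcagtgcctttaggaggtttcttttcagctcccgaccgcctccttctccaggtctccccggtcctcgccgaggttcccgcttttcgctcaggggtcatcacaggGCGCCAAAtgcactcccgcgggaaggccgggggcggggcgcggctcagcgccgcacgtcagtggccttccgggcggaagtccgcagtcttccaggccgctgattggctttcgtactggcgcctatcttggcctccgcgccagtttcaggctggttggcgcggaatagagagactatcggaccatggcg
Mcm6: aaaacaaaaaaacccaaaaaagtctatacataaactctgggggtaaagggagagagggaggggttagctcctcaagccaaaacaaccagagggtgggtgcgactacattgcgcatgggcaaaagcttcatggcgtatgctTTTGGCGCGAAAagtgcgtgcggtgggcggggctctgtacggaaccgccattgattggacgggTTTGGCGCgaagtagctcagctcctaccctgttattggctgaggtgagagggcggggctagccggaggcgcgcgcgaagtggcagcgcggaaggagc
Mcm7: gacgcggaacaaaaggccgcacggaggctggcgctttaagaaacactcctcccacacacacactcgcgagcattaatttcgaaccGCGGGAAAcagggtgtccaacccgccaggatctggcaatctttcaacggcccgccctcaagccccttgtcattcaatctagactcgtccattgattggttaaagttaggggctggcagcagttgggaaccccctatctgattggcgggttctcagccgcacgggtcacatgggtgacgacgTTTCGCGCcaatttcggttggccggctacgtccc
The promoter table held windows of 38 of the 46 genes, and Mcm4, Gins1, Gins2, Gins4, Rfc2, Prim2, Pole and Ccne2 had none in it. An E2F-type motif was in the window of 14 of the 38 genes (36.8%), against 704 of 27025 genes in the whole table (2.6%). The mitosis list, described further on, names 24 genes of chromosome segregation, of which 23 were measured. Of these 24 genes, 21 had a window and 1 of the 21 held the motif (4.76%). A CCAAT box (CCAAT, both strands) was in windows of 23 of the 38 members (60.5%), against 17 of 21 mitosis genes (81%) and 41.1% of all genes. The CHR element (cell cycle genes homology region, TTTGAA or TTCGAA on both strands), known from promoters of late cell cycle genes, was in windows of 7 members (18.4%), against 16 of the 21 mitosis genes (76.2%) and 21.7% of all genes. The second E2F-type match of Mcm7 overlaps a CCAAT box on the same stretch by 1 base. These are matches of letters and not shown sites of binding.

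On day 3 the DNA replication genes were higher in SKO cells than in GFP cells as a group of named genes: 34 of the 46 were called higher (73.9%) and 0 were called lower (limma, adjusted over all 19938 genes, threshold 0.05). Of all genes tested, 9.22% were called higher and 8.43% lower. The difference was positive in all 46 members, with a median of 0.82 on the log2 scale, against -0.04 over all genes. In 43 of the 46 both SKO arrays of day 3 lay above both GFP arrays, which held for 25.8% of all genes. In RNA of whole cultures, a larger share of cells in S phase and more RNA per cell cannot be told apart.

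**Figure D1:**
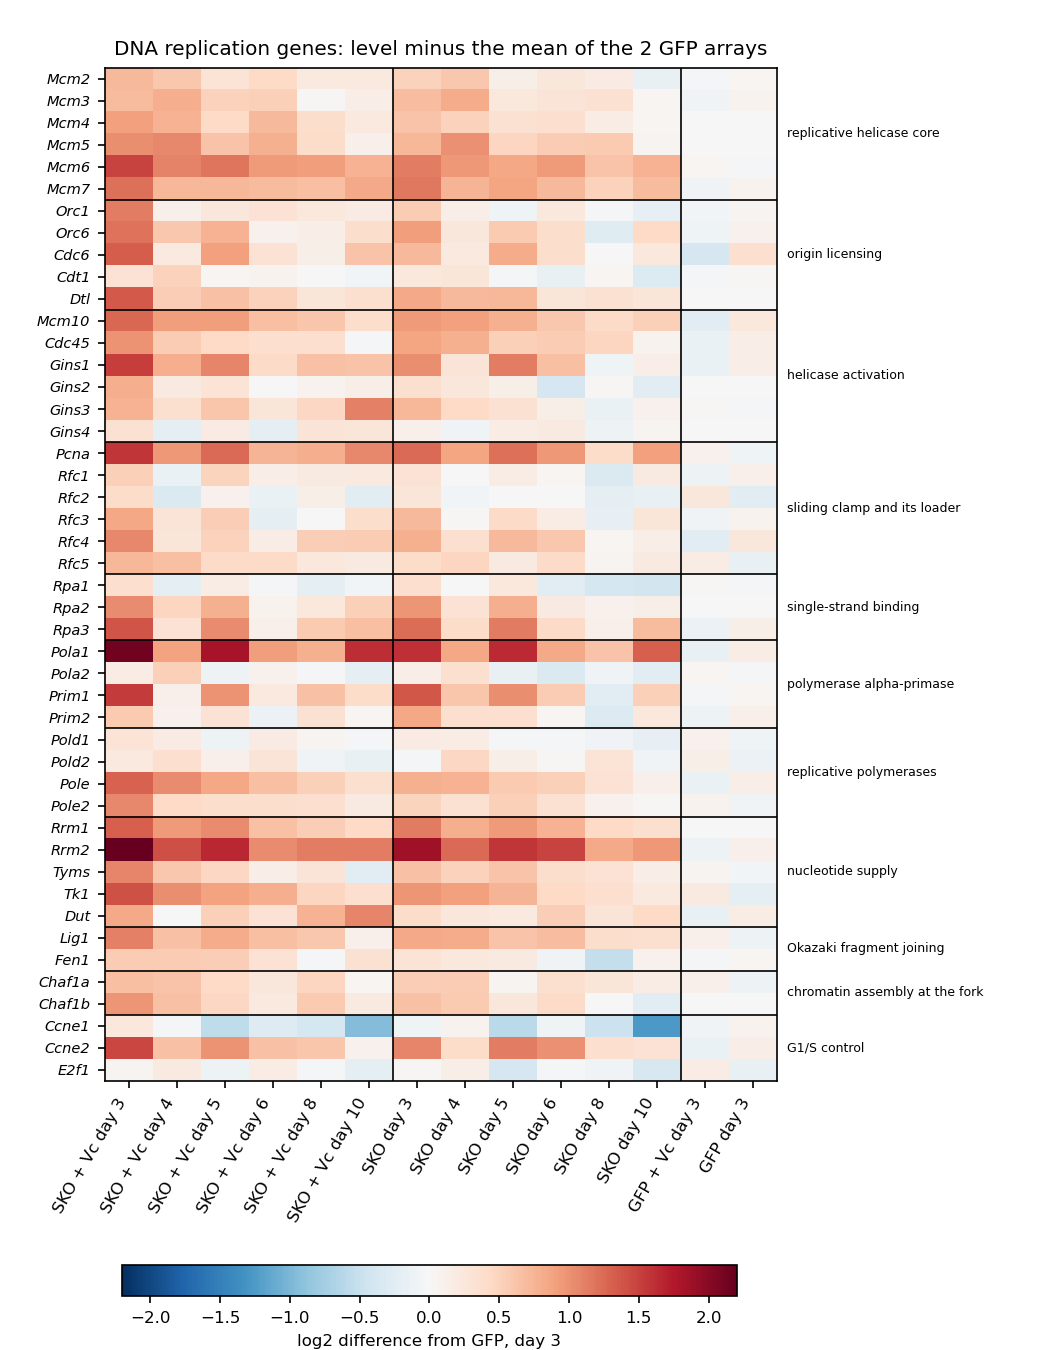
Log2 level of the 46 genes (rows, by role) in each of the 14 arrays (columns) minus the mean of both GFP arrays of that gene; red is above and blue below that mean. The 2 day 3 columns of SKO cells are red in nearly every row, and the columns of days 8 and 10 are paler. Rows such as Pola1, Rrm2 and Pcna are paler there too but stay red, while Ccne1 is blue at day 10.

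Rrm2, the small subunit of ribonucleotide reductase, which makes deoxynucleotides, had a level of 9.62 in vitamin C-treated SKO cells and 9.26 in untreated SKO cells on day 3, against 7.29 in vitamin C-treated GFP cells and 7.52 in untreated GFP cells. The difference of 2.04 (SE 0.19), a 4.11-fold higher signal, was the largest of the 46 (adjusted p = 2.25e-05). Pola1 had levels of 7.73 and 7.21 in treated and untreated SKO cells, against 5.45 and 5.76 in treated and untreated GFP cells. It was 3.64-fold higher in SKO cells (difference 1.87, SE 0.18, adjusted p = 2.78e-05). Neither gene overlapped between SKO and GFP arrays.

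Prim1, the catalytic subunit of primase, had levels of 7.48 and 7.31 in treated and untreated SKO cells, against 5.90 and 6.00 in treated and untreated GFP cells (2.73-fold higher, difference 1.45, SE 0.25, adjusted p = 0.001435). Pcna, the sliding clamp that holds polymerases on DNA, had levels of 9.72 and 9.39 in SKO cells, against 8.25 and 8.05 in GFP cells, treated before untreated in both (2.65-fold higher, difference 1.41, SE 0.16, adjusted p = 9.64e-05). Mcm6 had levels of 9.01 and 8.65 in treated and untreated SKO cells, against 7.56 and 7.46 in treated and untreated GFP cells (2.49-fold higher, difference 1.31, SE 0.15, adjusted p = 9.755e-05). For each of these genes the gap between SKO and GFP arrays was wider than the gap between arms.

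By role, all 6 subunits of the helicase core rose, with differences from 0.62 (Mcm2) to 1.31 (Mcm6). Of the origin licensing genes 4 of 5 rose, led by Dtl (1.09), the part of a ubiquitin ligase that marks Cdt1 for destruction, Orc6 (1.06) and Cdc6 (1.02). Cdt1, which loads the helicase, differed by 0.27 (SE 0.15, adjusted p = 0.247) and was not called. Of the helicase activation genes 5 of 6 rose, from Gins2 (0.58) to Gins1 (1.28), and Gins4 (0.23, SE 0.18) was not called. Of the clamp and its loader, the complex that opens Pcna, 4 of 6 rose, and Rfc1 (0.42) and Rfc2 (0.33) were not called.

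In the single-strand binding complex Rpa2 (1.001) and Rpa3 (1.31) rose, and Rpa1 had a difference of 0.38 (SE 0.16, adjusted p = 0.133). The 4 genes of polymerase alpha-primase split: Pola1, Prim1 and Prim2 (0.71) rose, while Pola2, the accessory subunit, had a difference of 0.15 (SE 0.15, adjusted p = 0.568). Of the replicative polymerases the 2 genes of polymerase epsilon rose, Pole by 1.04 and Pole2 by 0.77. The 2 genes of polymerase delta were not called, with Pold1 at 0.24 (SE 0.14) and Pold2 at 0.09 (SE 0.17). Whether epsilon and delta genes differed from each other was not tested.

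Among genes of nucleotide supply Rrm2, Rrm1 (1.23), Tk1 (1.19), which salvages thymidine, and Tyms (0.86), which makes thymidylate, rose, and Dut, which removes dUTP, had a difference of 0.62 (SE 0.23, adjusted p = 0.0866). Lig1 (0.97), which seals Okazaki fragments, rose, and Fen1, the flap nuclease that trims them, had 0.43 (SE 0.16, adjusted p = 0.0851). Both chromatin assembly genes rose, Chaf1b by 0.81 and Chaf1a by 0.60. Of the 3 G1/S control genes 1 rose. Ccne2, an E cyclin and so an activator of Cdk2, rose by 1.28 (SE 0.20, adjusted p = 0.000684), with levels of 6.00 and 5.60 in treated and untreated SKO cells, against 4.38 and 4.66 in treated and untreated GFP cells. Ccne1, the other E cyclin, had levels of 8.17 and 7.84 in treated and untreated SKO cells, against 7.86 and 8.02 in treated and untreated GFP cells, so that the arrays of SKO and GFP cells overlapped (difference 0.07, SE 0.17, adjusted p = 0.837). Whether the E cyclins differed from each other was not tested. E2f1, itself both an activator and a target at G1/S, had levels of 6.44 and 6.40 in SKO cells, against 6.54 and 6.20 in GFP cells, treated before untreated in both (difference 0.05, SE 0.15, adjusted p = 0.859).

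**Figure D2:**
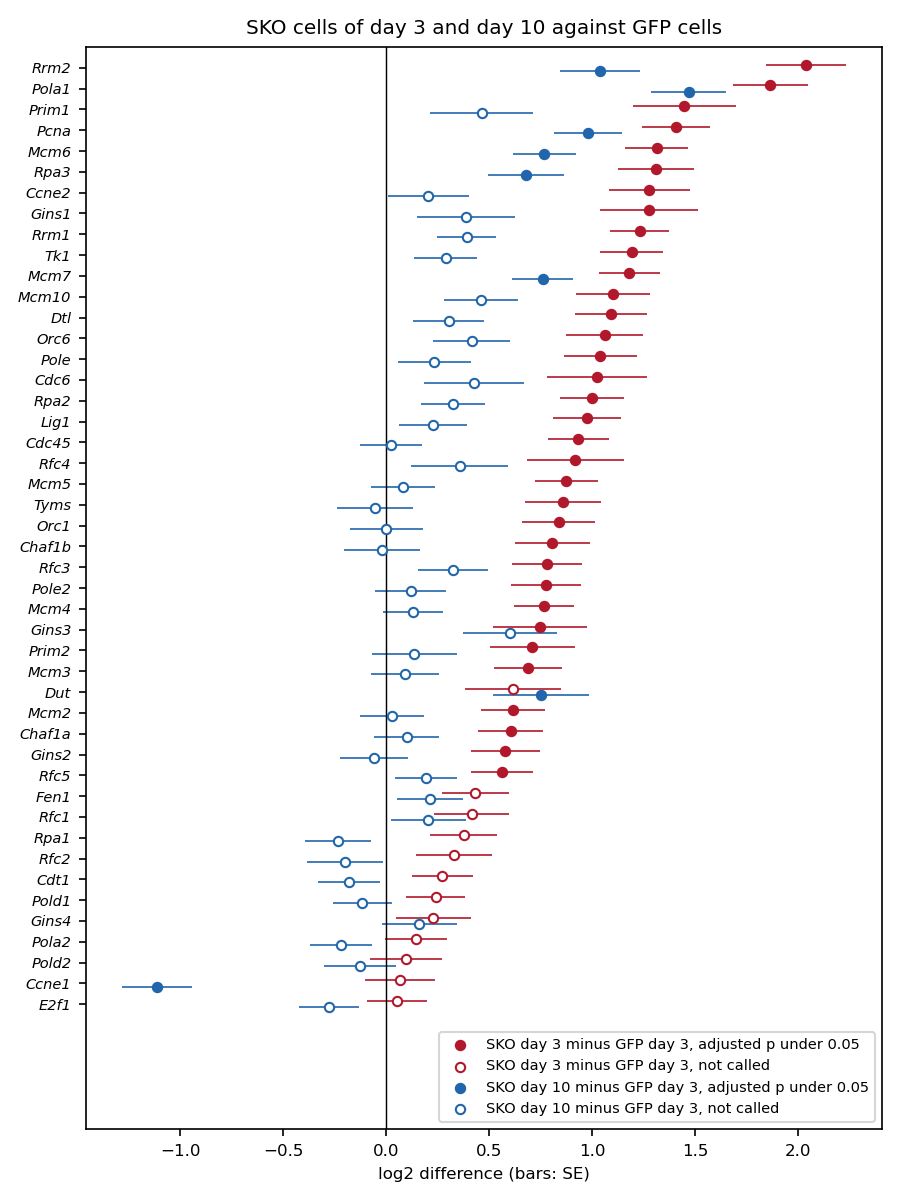
Log2 difference of each of the 46 genes between SKO and GFP cells, with SKO cells of day 3 (red) and of day 10 (blue), each against the GFP cells of day 3; bars are SE of the limma fit and filled points have an adjusted p under 0.05. All red points lie above 0, from 0.05 (E2f1) to 2.04 (Rrm2), while most blue points are open and Ccne1 lies at -1.11.

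The count of 34 depended on single arrays. It was 20 without the vitamin C-treated SKO array of day 3 and also 20 without the vitamin C-treated GFP array, all of them among the 34. Leaving out either of these arrays lowered the calls among all genes too, with the ranges given at the end. With the SKO arrays of day 4 in place of day 3 the count of members was 18 (39.1%), against 4.88% of all genes called higher. Prim1 was not called with the day 4 arrays (difference 0.36, limma adjusted p = 0.541).

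Other genes of the pathway, in 6 lists of 111 measured genes that hold no member, moved in the same direction on day 3, with 77 called higher and 1 lower and a median difference of 0.74. Of other origin and firing factors 9 of 15 rose, led by Gmnn (1.28), the inhibitor of Cdt1, and Cdc7 (0.97), the kinase that fires origins. Of other fork and polymerase genes 15 of 22 rose, led by Clspn (1.26), the checkpoint adaptor at the fork, and Asf1b (1.22), a histone chaperone. Of other nucleotide genes 6 of 13 rose, led by Ctps (1.35), which makes CTP, and Umps (1.32), which makes UMP. Of E2F and retinoblastoma family genes and G1/S regulators 12 of 21 rose, led by Fbxo5 (1.91), an inhibitor of the anaphase-promoting complex, and Rb1 (1.42), the retinoblastoma gene. E2f4 was the 1 gene of the lists called lower, with levels of 7.10 and 6.91 in treated and untreated SKO cells, against 8.11 and 8.07 in treated and untreated GFP cells (difference -1.09, SE 0.22, adjusted p = 0.00436). E2f4 is known as a partner of repressive complexes at E2F sites. In SKO cells of days 4 and 6 it was not called lower. The lowest difference from GFP cells in its list was -0.30 on each of these days. Of checkpoint and repair genes 12 of 17 rose, led by Chek1 (1.75) and Fancd2 (1.45). All 23 mitosis genes rose, led by Bub1 (1.73), a spindle checkpoint kinase, and Kif11 (1.45), a spindle motor, with a median of 1.08.

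The factors delivered by the virus were checked in the same fit. Pou5f1 had levels of 11.31 and 11.19 in treated and untreated SKO cells, against 4.10 and 4.06 in treated and untreated GFP cells, Klf4 was 2.02-fold and Sox2 1.52-fold higher in SKO cells, and all 3 were called. Fibroblast markers were present in all 14 arrays: the mean level of the 12 genes ran from 9.71 to 10.04 in SKO arrays and was 10.71 and 10.32 in treated and untreated GFP arrays. On day 3, 7 of these 12 were lower in SKO cells and 0 higher. Of 18 macrophage markers 1 was lower, and of 12 pluripotency and 9 epithelial markers 0 were called in that comparison, although 2 of each had an unadjusted p under 0.05 in limma, as did 29.8% of all genes. The part of these shifts in the values of the replication genes was not tested. Log signals have no 0, so absence of a marker cannot be read from them.

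The day 3 difference was smaller on later days. Each later SKO day was set against the same GFP arrays of day 3, so that virus and day differ together and all these comparisons share the GFP arrays. The 34 members called higher on day 3 compare with 18 on day 4, when 4.88% of all genes were called higher, and 20 on day 5 (10.6% of all genes). Day 6 had 13 such members (7.3% of all genes), day 8 had 6 (8.17%) and day 10 had 7 (12.1%). As shares of the 46 members these were 73.9%, 39.1%, 43.5%, 28.3%, 13% and 15.2%, so that on day 10 the share was near that of all genes. The median difference of members was 0.82, 0.43, 0.48, 0.35, 0.22 and 0.21 on days 3 to 10.

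**Figure D3:**
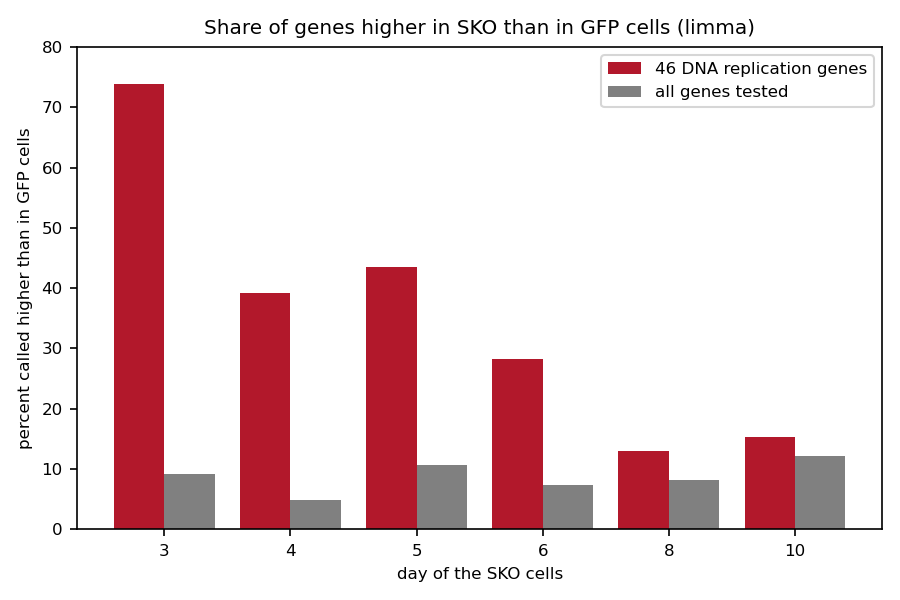
Percent of the 46 DNA replication genes (red) and of all 19938 genes (grey) called higher in SKO cells of each day than in GFP cells of day 3 (limma, adjusted p under 0.05); every comparison uses the same 2 GFP arrays. The red bars are 73.9% on day 3 and 15.2% on day 10, where the grey bar is 12.1%.

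The 7 members called higher on day 10 were Pola1, Rrm2, Pcna, Mcm6, Mcm7, Rpa3 and Dut. Pola1 had levels of 7.23 and 6.92 in treated and untreated SKO cells of day 10, against 5.45 and 5.76 in treated and untreated GFP cells (2.77-fold higher, difference 1.47, SE 0.18, adjusted p = 5.63e-05). Rrm2 had 8.52 and 8.36 in SKO cells, against 7.29 and 7.52 in GFP cells, treated before untreated (2.055-fold higher, adjusted p = 0.00136). Pcna had 9.20 and 9.06 in SKO cells, against 8.25 and 8.05 in GFP cells, in the same order (1.97-fold higher, adjusted p = 0.000607). In these 3 genes every SKO array of every day lay above both GFP arrays.

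Mcm6 had 8.28 in both SKO arrays of day 10, against 7.56 and 7.46 in treated and untreated GFP cells (1.70-fold higher, adjusted p = 0.00227). Mcm7 had 8.10 and 7.96 in SKO cells, against 7.18 and 7.35 in GFP cells, treated before untreated (1.695-fold higher, adjusted p = 0.00186). The other 4 helicase subunits were at 0.03 to 0.13 above GFP cells on day 10 and were not called. Rpa3 (difference 0.68, SE 0.18) and Dut (0.75, SE 0.23, adjusted p = 0.0301) were the remaining members called higher.

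Ccne1 was the 1 member called lower on day 10, against 12.2% of all genes. Its levels were 6.98 and 6.67 in treated and untreated SKO cells, against 7.86 and 8.02 in treated and untreated GFP cells, with no overlap (difference -1.11, SE 0.17, a 2.16-fold lower signal, adjusted p = 0.000296). It was called lower on day 5 too, with a difference of -0.58. Among the 111 other pathway genes 18 were called higher and 5 lower on day 10, with a median of 0.20. Of all genes, 12.1% were called higher and 12.2% lower. The lower ones included E2f4 (-1.30), E2f3 (-1.06), a transcription factor of the activating E2F class, Cad (-1.06), which starts pyrimidine synthesis, and the mitotic genes Kif20a (-0.60) and Plk1 (-0.47). Rb1 was at 1.99 and Chek1 at 1.18 above GFP cells.

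Markers of other cell types moved with the comparison of day 10 with GFP cells too. Of 18 macrophage markers 9 were higher, with mean levels of 5.50 and 5.66 in treated and untreated SKO cells of day 10, against 4.89 and 4.61 in treated and untreated GFP cells. Of pluripotency markers 5 of 12 and of epithelial markers 4 of 9 were higher, and none was lower. Of fibroblast markers 6 of 12 were lower and 1 higher, with mean levels of 9.91 and 9.98 in SKO cells, against 10.71 and 10.32 in GFP cells, treated before untreated. Their part in the values of the replication genes on day 10 was not tested.

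Within SKO cells, 26 of the 46 members were lower on day 10 than on day 3 (56.5%) and 0 were called higher, against 5.64% of all genes called lower and 6.55% called higher. The median difference was -0.60 in members and -0.02 in all genes, and all members but Dut had a negative sign. This comparison and that of SKO with GFP cells on day 3 use the same SKO arrays of day 3, so their values are given side by side and not related.

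Ccne1 had levels of 6.98 and 6.67 in treated and untreated cells of day 10, against 8.17 and 7.84 in treated and untreated cells of day 3 (2.27-fold lower, difference -1.18, SE 0.17, adjusted p = 0.000753). Ccne2 had 4.62 and 4.84 on day 10, against 6.00 and 5.60 on day 3, treated before untreated (2.10-fold lower, difference -1.07, SE 0.19, adjusted p = 0.00373). Rrm2 had 8.52 and 8.36 on day 10, against 9.62 and 9.26 on day 3, in the same order (2.00-fold lower, difference -0.999, SE 0.19, adjusted p = 0.00475). Ccne2 was not called without the vitamin C-treated array of day 3 (adjusted p = 0.0675) or of day 10 (adjusted p = 0.052), nor against day 4 (difference -0.32). Rrm2 was not called without the vitamin C-treated array of day 3 (adjusted p = 0.0741), nor against day 4 (difference -0.30).

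Prim1 had 6.35 and 6.48 on day 10, against 7.48 and 7.31 on day 3, treated before untreated (1.98-fold lower, difference -0.98, SE 0.26, adjusted p = 0.0299). Tyms had 6.53 and 6.92 on day 10, against 7.86 and 7.43 on day 3, in the same order (1.88-fold lower, difference -0.91, SE 0.19, adjusted p = 0.00763). In neither gene did the arrays of the 2 days overlap. Prim1 was not called without any 1 of the 4 arrays of days 3 and 10 (adjusted p = 0.0807 to 0.197 in limma), and against day 4 its difference turned to 0.11. Tyms was not called without the vitamin C-treated array of day 3 (adjusted p = 0.127) or of day 10 (adjusted p = 0.103).

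By role, 5 of 6 helicase core genes fell, with differences from -0.55 (Mcm6) to -0.79 (Mcm5), and Mcm7 was not called (-0.42, SE 0.14, adjusted p = 0.0826). All 3 single-strand binding genes fell, with differences from -0.61 to -0.67. Of the helicase activation genes Cdc45 (-0.91), Gins1 (-0.89), Mcm10 (-0.64) and Gins2 (-0.64) fell, and of nucleotide supply Rrm1 (-0.84), Rrm2, Tyms and Tk1 (-0.90). Orc1, Orc6 and Dtl of origin licensing, Pole and Pole2, Lig1 and Chaf1b fell as well. None of the 6 clamp and loader genes was called, with differences from -0.56 (Rfc4) to -0.21 (Rfc1), though 5 of them had an unadjusted p under 0.05 in limma, as did 24.7% of all genes. Of polymerase alpha-primase Prim1 alone was called, and Pola1 had -0.40 (SE 0.16, adjusted p = 0.136).

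**Figure D4:**
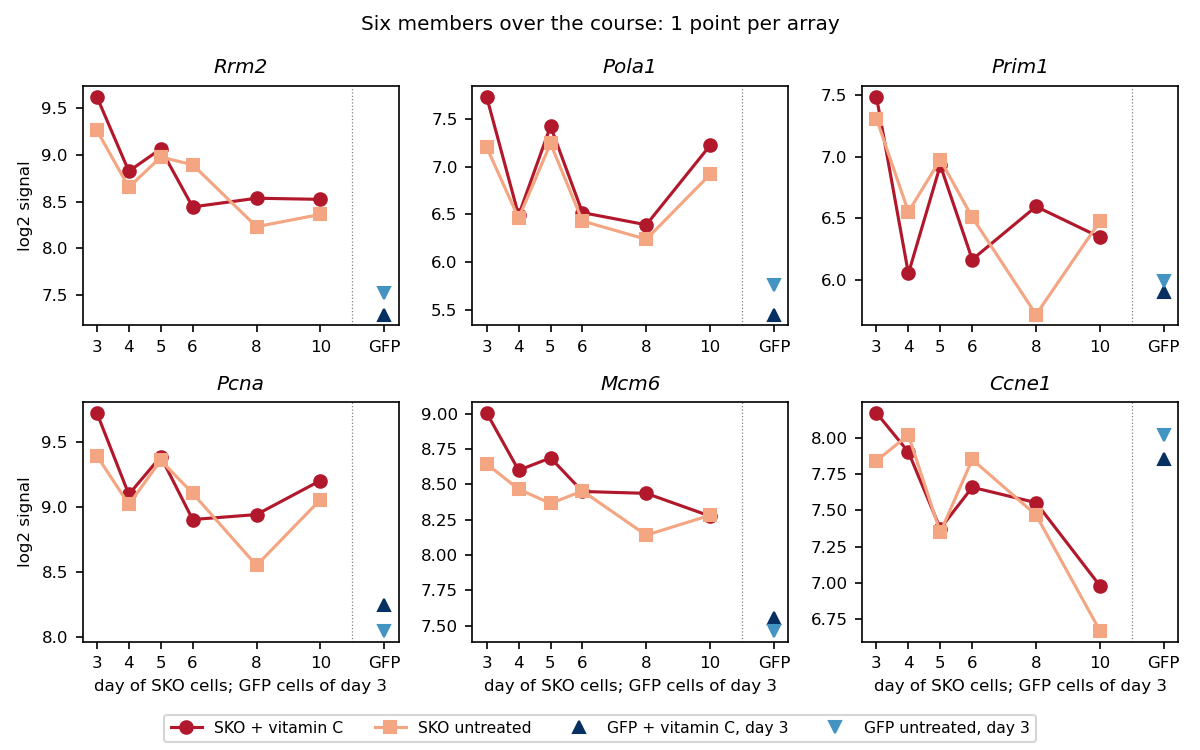
Log2 signal of Rrm2, Pola1, Prim1, Pcna, Mcm6 and Ccne1 by day in vitamin C-treated (dark red circles) and untreated (light squares) SKO cells, with both GFP arrays of day 3 at the right of each panel; each point is 1 array and the y axes differ. Rrm2, Pola1, Pcna and Mcm6 stay above both GFP points on every day, Pola1 is high on days 3, 5 and 10, and Ccne1 drops to 6.98 and 6.67 on day 10.

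This count also rested on single arrays. It was 4 without the vitamin C-treated array of day 3 (Cdc45, Rrm1, Tk1 and Ccne1), 16 without the untreated array of day 3, and 11 without either array of day 10. Leaving out any of these arrays lowered the calls among all genes too, with the ranges given at the end. Against day 4 in place of day 3, 13 members were lower and Pola1 was higher on day 10 (0.60, SE 0.16, limma adjusted p = 0.0243). Calls among all genes against day 4 are not given here, so these counts are not set against a background. Against day 5, 0 members were called, and calls among all genes were far fewer as well.

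The other pathway genes fell with the members, 51 of 111 called lower and 0 higher, with a median of -0.54. The mitosis list held 22 of these, led by Prc1 (-1.27), which bundles spindle microtubules, and Bub1 (-1.26). Of checkpoint and repair genes 9 of 17 fell, with Rad51ap1 (-0.96) and Blm (-0.88), both of homologous recombination, and of other fork genes 8 of 22, with Clspn (-1.24) and Asf1b (-1.18). Of other origin factors 5 of 15 fell, with Mtbp (-0.91), a partner of Ticrr in origin firing, and Cdc7 (-0.79). Of G1/S regulators 4 of 21 fell, with Cks1b (-1.39), a Cdk subunit, and Ccna2 (-0.79), the cyclin of S phase, and of nucleotide genes 3 of 13, with Nme1 (-1.09) and Cad (-0.77).

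Markers of other cell types moved with this comparison. Of 18 macrophage markers 11 were higher on day 10, with mean levels of 5.50 and 5.66 in treated and untreated cells, against 4.54 and 4.46 on day 3. Of pluripotency markers 5 of 12 were higher, with mean levels of 5.53 and 5.2 on day 10, against 4.70 and 4.67 on day 3, treated before untreated. Of epithelial markers 4 of 9 were higher and 1 lower, and of fibroblast markers 3 of 12 were higher and 2 lower. Their part in the fall of the replication genes was not tested.

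Over all 6 days, 27 members differed between some days (58.7%, limma F test), against 18.9% of all genes. The day with the highest mean of both arms was day 3 in 38 members, and in 23.06% of all genes. The lowest was day 10 in 24 members and day 8 in 15, for which the share among all genes was not computed. Without the day 3 arrays 3 members were called (6.52%), Pola1, Mcm5 and Ccne1, which was below the 9.99% of all genes called in that setting. Without the day 10 arrays 14 were called (30.4%), against 11.9% of all genes. The mean level of the 46 genes in vitamin C-treated cells was 7.38, 6.92, 6.997, 6.76, 6.77 and 6.73 on days 3, 4, 5, 6, 8 and 10. In untreated cells it was 7.12, 6.89, 6.91, 6.78, 6.54 and 6.58 on the same days, and in GFP cells 6.39 with and 6.45 without vitamin C. Every SKO array thus lay above both GFP arrays in this mean.

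Several members did not follow a steady course but were high on days 3 and 5 and low on days 4 and 6. This was measured as the height of day 4 over its neighbours averaged with the depth of day 5 under its neighbours, a measure chosen after the data were seen and so a description. It was negative past the threshold in 6 members (5.94% of all genes) and positive in 0 (6.53% of all genes), although 17 members (37%) had an unadjusted p under 0.05 in limma, as did 26.8% of all genes. The 6 were Pola1 (-0.89, SE 0.12), Rpa3 (-0.81, SE 0.14), Prim1 (-0.75, SE 0.21), Cdc6 (-0.65, SE 0.14), Gins1 (-0.60, SE 0.17) and Rpa2 (-0.51, SE 0.12). A share of 13% of members against 5.94% of all genes rests on few genes. Of the 111 other pathway genes 14 were negative and 3 positive past the threshold. The 3 were E2f4 (1.14, SE 0.18), E2f3 (0.58, SE 0.14) and Cad (0.51, SE 0.12). All 3 are also among the genes called lower on day 10 against GFP cells.

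Pola1 had levels of 7.73, 6.49, 7.43, 6.52, 6.39 and 7.23 on days 3, 4, 5, 6, 8 and 10 in vitamin C-treated cells. In untreated cells the same days gave 7.21, 6.46, 7.25, 6.43, 6.24 and 6.92. The days 3, 5 and 10 lay above the days 4, 6 and 8 in both arms without overlap. Rpa3 had 6.37, 5.31, 6.02, 5.09, 5.55 and 5.64 in treated cells and 6.21, 5.38, 6.12, 5.40, 5.09 and 5.68 in untreated cells over the same days. Mcm5, in contrast, had 7.74, 7.78, 7.34, 7.49, 7.12 and 6.82 in treated cells and 7.44, 7.72, 7.19, 7.28, 7.29 and 6.78 in untreated cells, with no high value on day 5. This measure was called in 2486 of all genes, in either direction, and whether days were processed in separate sets is not given in the sources used here, so culture day and processing cannot be told apart.

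The study's own comparison was vitamin C against no vitamin C. In SKO cells 0 of the 46 members were called in either direction (limma, with the arrays of 1 day as a pair), against 0.642% of all genes higher and 0.291% lower. At an unadjusted p under 0.05 (limma) there were 10 members (21.7%), against 11.6% of all genes. All 10 were higher with vitamin C, namely Fen1, Pole, Mcm4, Orc1, Gins1, Tk1, Gins2, Gins3, Pola1 and Chaf1b. The sign was positive in 42 of the 46 members and in 9514 of all 19938 genes. The median was 0.10 in members on the log2 scale, against -0.01 over all genes. The 95% intervals, not adjusted for the number of genes, ran at most from -0.32 (Prim1) to 0.63 (Gins3). Those of 10 members lay wholly above 0 and those of 0 members wholly below it. The other intervals leave room for small differences in either direction.

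Fen1 had levels of 6.57, 6.56, 6.55, 6.32, 5.98 and 6.33 in vitamin C-treated SKO cells on days 3, 4, 5, 6, 8 and 10. The untreated cells had 6.30, 6.23, 6.20, 5.92, 5.47 and 6.10 on those days, lower on all 6. The difference was 0.35 (SE 0.08, 95% interval 0.17 to 0.52, adjusted p = 0.08), and it passed the threshold (adjusted p = 0.038) when the third of genes with the lowest signal was left out. In GFP cells, 1 pair of arrays, Fen1 had 5.95 with and 6.05 without vitamin C.

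Gins3 and Gins1, subunits of the GINS complex, had the next largest differences. Gins3 had a mean difference of 0.33 (SE 0.13, adjusted p = 0.367) and was higher on 5 of 6 days, with 6.02 in treated and 5.00 in untreated cells on day 10 as its widest gap. Gins1 had 0.32 (SE 0.13, adjusted p = 0.343) and was higher on 4 of 6 days. The differences of Gins3 by day were 0.03, -0.09, 0.27, 0.15, 0.61 and 1.02, which overlap 0.

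By day, 45 of the 46 members were higher with vitamin C on day 3 in SKO cells, with a median of 0.27, while 51.07% of all genes were higher. Prim2 was the exception. Day 8 had 39 higher members (median 0.21), day 10 had 32 (median 0.14) and day 5 had 31 (median 0.11). Of all genes, 46.25% were higher on day 8, 50.29% on day 10 and 48.73% on day 5. The counts of day 4 (26, median 0.03) and day 6 (22, median -0.01) were close to an even split, with 51.44% and 47.45% of all genes higher. In GFP cells of day 3, 18 members were higher (median -0.03), and 52.01% of all genes. Each of these is 1 pair of arrays, with no replicate, and members of 1 array share its errors. Positive signs on all 6 days were seen in 8 members, namely Mcm2, Mcm4, Pola1, Pola2, Pole, Tk1, Fen1 and E2f1, and in 3.902% of all genes.

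**Figure D5:**
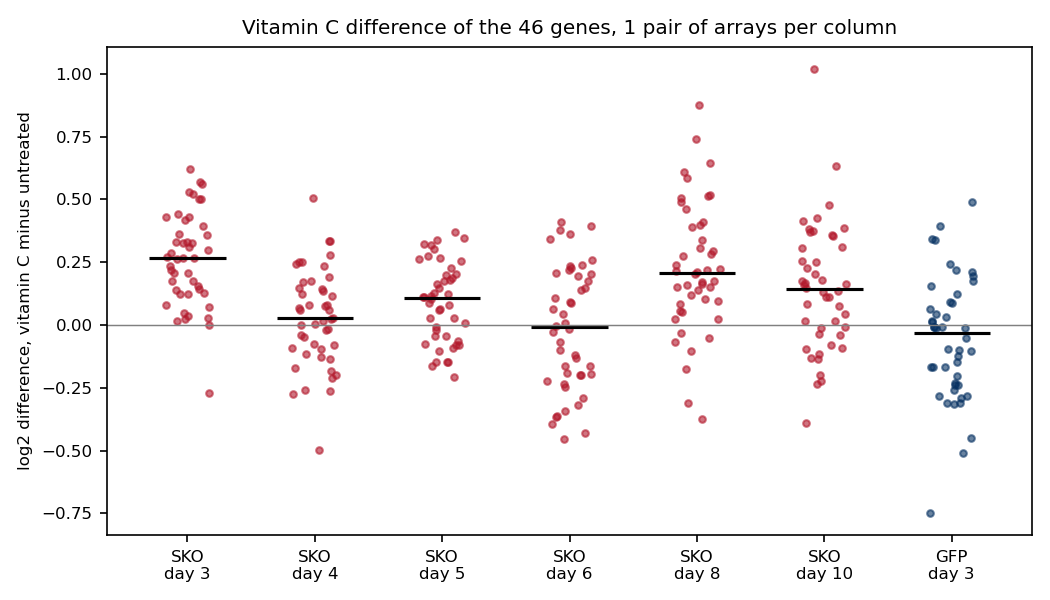
Vitamin C-treated minus untreated log2 signal of each of the 46 genes, for each day of SKO cells (red) and for GFP cells of day 3 (blue); each point is 1 gene in 1 pair of arrays and black lines are medians. The medians are 0.27 on day 3, -0.01 on day 6 and 0.21 on day 8 in SKO cells, and -0.03 in GFP cells.

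The difference did not drift with day in any member past the threshold: 0 members were called for the slope (limma), and 0.0351% of all genes were called. At an unadjusted p under 0.05 there was 1 member (2.17%), against 7.87% of all genes. Gins3 had the largest slope, 0.15 per day (SE 0.04, adjusted p = 0.272), followed by Tyms (-0.09, SE 0.04) and Dut (0.07, SE 0.05). Between GFP and SKO cells the vitamin C difference was called in 0 members and in 0% of all genes (limma). At an unadjusted p under 0.05 there were 4 members (8.7%), against 6.91% of all genes. Cdc6 had the largest gap, -0.94 (SE 0.28, adjusted p = 0.626), with 4.97 in treated and 5.72 in untreated GFP cells. Gins1 (-0.61, SE 0.34) and Rfc4 (-0.59, SE 0.33) followed. The GFP side of this comparison is a single pair of arrays.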

How the data were processed

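Total RNA of 14 cultures, 100 ng each, was measured, per the labels' protocols, by the whole-transcript assay of Affymetrix. The authors deposited log2 signals made with RMA and Partek, per the submitters' processing notes; no version is stated there, and the log2 scale was read from the values (0.724 to 14.1, array medians 5.19 to 5.28). RMA compresses weak signals, so folds of dim genes can be understated. Of 28853 probes, 21789 had 1 symbol, 1621 several and 5443 none. The values were not normalized again.

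limma 3.58.1 in R 4.3.3 (lmFit, eBayes, Benjamini-Hochberg over 19938 genes, threshold 0.05) was used with day (or virus and day) and vitamin C as terms, which left 5 residual degrees of freedom in SKO fits and 6 with GFP. The slope fit had 1 more term and left 4, and the fit of vitamin C in GFP against SKO cells likewise left 5. Precision is limited by the number of arrays. The labels give the same days in both SKO arms, and arrays were paired by day. Over all genes, both arrays of a day deviated together from the means of their arms. Pearson r ran from 0.248 (day 6) to 0.677 (day 3). A change with day that both arms share gives such an r, so it does not show that cultures were paired. The procedure was tested on simulated data with independent noise for each gene and array. Such data hold no errors that genes of 1 array or sets of days share, so the test does not cover these.

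The members, lists, marker sets and rules were chosen with earlier results of these data known. In each comparison, values in every array are given for up to 5 called members per direction with the largest difference of 1 sign in all pairs, or the 3 largest where 0 were called, and up to 2 genes per pathway list and direction. Members named beside these were picked after their values were seen. The alternatives were other normalizations, filters, variance settings, probe means, day codings and each array or day left out. Promoter windows came from RefSeq (GRCm38.p6). Figures used matplotlib 3.10.9 in Python 3.11.15.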

Additional observations from a re-analysis of the deposited data

Results flagged for a closer look

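Of 140 sets of 6 values checked, 10 held 1 value far from the other 5 by Dixon's test, and chance alone flags about 1 set in 20. In 5 of them the level of vitamin C-treated SKO cells on day 3 stood above all later days of that arm: Mcm7 at 8.47 (others 7.93 to 8.10), Orc1 at 5.44 (others 4.43 to 4.65), Dtl at 7.46 (others 6.39 to 6.77), Gins2 at 7.19 (others 6.41 to 6.70) and Pole2 at 6.12 (others 5.27 to 5.51). In the other 5 the vitamin C difference of 1 day stood apart. Rfc3 (-0.36), Rrm1 (-0.13) and Rrm2 (-0.45) were low on day 6, Prim2 was high on day 8 (0.65), and Pole was high on day 3 (0.52).

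In 5 members the vitamin C difference was negative in GFP cells and positive on all 6 days in SKO cells. The GFP differences were -0.10 for Mcm2, -0.0065 for Mcm4, -0.31 for Pola1, -0.28 for Pole and -0.10 for Fen1. The GFP value is 1 pair of arrays, and these genes were picked by sign and the differences were not tested beyond the fit over all genes, which called 0 members (4 at an unadjusted p under 0.05 in limma, 8.7% against 6.91% of all genes).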

How the results depend on the processing

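The 34 members higher in SKO cells on day 3 numbered 34 under quantile normalization, median centring, a filter on low signal, an intensity trend, robust variances, array weights and probe means, and the 26 lower on day 10 numbered 25 to 31 under the same settings. Median centring moved the share of higher calls for day 10 against day 3 among all genes to 42.11%, against 53.74% as reported. The day pairing was a term of every fit: with no replicate block the vitamin C test called 3 genes higher and 1 lower of all genes, and 0 members, and without the vitamin C term 32 members were higher in SKO than in GFP cells and 22 lower on day 10 than on day 3. SKO cells of day 4 against GFP cells gave 18 members and 972 genes higher and 579 lower. Against day 4, day 10 had 1 member higher and 13 lower, with the count of all genes not given here, and Prim1 turned to 0.11 (limma adjusted p = 0.831). Against day 5, 0 members and 242 genes higher and 103 lower were called. For any day, days 3, 5 and 10 alone gave 11 members and 1232 genes, and days 4, 6 and 8 alone gave 0 members and 175 genes; fewer arrays were used in both. For vitamin C, 1 member (Fen1) was called when low signals were left out. The calls among all genes numbered 235 higher and 129 lower with an intensity trend, 85 and 27 with day as a straight line, 0 and 0 on days 3, 5 and 10, and 50 and 12 on days 4, 6 and 8. The slope was called in 23 genes with low signals left out and 35 with a trend, and GFP against SKO in 1 gene with a trend. The causes were not tested. With single arrays or days left out, SKO against GFP on day 3 gave 20 to 30 members and 697 to 1530 genes higher and 601 to 1228 lower. Day 10 against day 3 gave 4 to 16 members lower, and 619 to 912 genes higher and 345 to 599 lower. Any day gave 3 to 28 members and 1991 to 4323 genes. SKO of day 10 against GFP gave 1469 to 2023 genes higher and 1451 to 1917 lower. Vitamin C gave 20 to 186 higher and 3 to 77 lower, and the slope 0 to 10 genes. Of single members' values under alternatives, 303 kept direction and side of the threshold, 17 lost the call, 1 gained it and 1 turned.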
